A study of Mus musculus with 34 samples.

Results

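A set of 8 genes of hepatic fatty acid oxidation were followed through the peak lists of HDAC3, PROX1 and HNF4α in mouse liver. They are *Ppara*, *Cpt1a*, *Acadm*, *Eci1*, *Ehhadh*, *Cyp4a10*, *Cyp4a14* and *Pdk4*, 8 of the 22367 protein-coding genes of the annotation. A window was opened around each gene, reaching 50 kb before its transcription start site (TSS) and 2 kb beyond its last base, and every peak centred in it was taken. The rule that names the genes uses their function and no measured value, but they were chosen with earlier results of these data known. None of them encodes an enzyme of ketone body synthesis, so genes of that pathway are described only within the wider list near the end.

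In this series, chromatin bound by each factor was precipitated from livers and sequenced (ChIP-seq). The labels give male C57B/6 mice of 10 weeks, with livers taken at zeitgeber time 10 (ZT10, hours after lights on). The HDAC3 list and the PROX1 list each came from 3 libraries of livers labelled Control, with no allele or agent named, and the HNF4α list from 2 libraries of HNF4A floxed livers. Per the methods, the floxed controls were *Hnf4α* fl/fl mice given AAV8 TBG *Egfp*, a virus whose TBG promoter is active in hepatocytes, so the HNF4α list comes from other animals than the HDAC3 and PROX1 lists. The replicates were pooled before peaks were called, and 1 list per factor is at hand. Variation from liver to liver and sequencing depth are therefore unknown, no test between conditions was possible, and the 95% Wilson intervals printed with shares cover counting error over peaks only. Neighbouring peaks are not independent.

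HDAC3 is the histone deacetylase of the NCoR and SMRT corepressor complexes, PROX1 is a homeodomain factor that can act as a corepressor in liver, and HNF4α is the nuclear receptor that maintains hepatocyte identity. In fasting, hepatocytes burn fatty acids delivered from adipose tissue, and the nuclear receptor PPARα switches on most of the enzymes for this, including the other genes described here. PPARα with its partner RXR, and HNF4α with itself, both bind direct repeats of AGGTCA-like hexamers separated by 1 base (DR1). The HNF4α list carried the marks of hepatocytes. HNF4α peaks numbered 6 to 10 in the windows of *Alb*, *Apob*, *Ttr*, *Cps1* and *Tat*, and 0 or 1 in those of *Myh6*, *Neurod1*, *Ins2* and *Ptprc*, genes of other tissues.

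Peaks are named here by the factors found on them. A peak with identical coordinates in the HDAC3 and the PROX1 list is called co-bound, and triply bound when a single HNF4α peak covered at least 50% of it. The others are PROX1-only, HDAC3-only, or HNF4α peaks of which no HDAC3 or PROX1 peak covered 50%. An HNF4α peak can miss every class, when it is itself covered by 50% or more but covers less than 50% of the co-bound peak. The HNF4α peaks at 3.33 kb of *Cpt1a* and -0.112 kb of *Pdk4* are such cases and are in no count of HNF4α peaks by class. Positions are given on mm9 as the distance of the peak centre from the TSS in kb, negative upstream. A score accompanies each HNF4α peak, whereas HDAC3 and PROX1 peaks come without any height.

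The sequences of 13 peaks show what lay under the binding at each gene. For every gene except *Pdk4* the triply bound peak with the highest HNF4α score is printed, and promoter peaks are added, together with a second *Ppara* peak, an HDAC3-only peak at *Ehhadh* and a distal *Pdk4* peak that were picked after their matches were seen. The only triply bound *Pdk4* peak lies in an exon and is described without its sequence. All are read from the forward strand of mm9, 5′ to 3′, and are 200 bp long. Capitals mark a match on either strand to the HNF4 core CAAAGTCCA with at most 1 mismatch, to DR1 (AGGTCA repeated after 1 base) with at most 2 mismatches, or to DR2 (AGGTCA repeated after 2 bases, the spacing bound by REV-ERB receptors) with at most 2 mismatches. Matches of different motifs can overlap. The rule is strict, with a core match in 28.4% of all triply bound peaks, so a peak without a match can still hold a less similar site.
Ppara peak at -29.3 kb, triply bound, chr15:85536056-85536255: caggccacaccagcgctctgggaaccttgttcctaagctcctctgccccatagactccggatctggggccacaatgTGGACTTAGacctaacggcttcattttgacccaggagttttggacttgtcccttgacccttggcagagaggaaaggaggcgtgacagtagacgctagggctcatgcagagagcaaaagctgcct
Ppara peak at 19.5 kb, triply bound, chr15:85584800-85584999: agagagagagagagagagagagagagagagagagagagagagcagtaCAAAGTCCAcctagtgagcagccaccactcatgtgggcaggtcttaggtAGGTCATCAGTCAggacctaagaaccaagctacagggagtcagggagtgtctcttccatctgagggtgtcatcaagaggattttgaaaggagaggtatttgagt
Cpt1a peak at -3 kb, triply bound, chr19:3320202-3320401: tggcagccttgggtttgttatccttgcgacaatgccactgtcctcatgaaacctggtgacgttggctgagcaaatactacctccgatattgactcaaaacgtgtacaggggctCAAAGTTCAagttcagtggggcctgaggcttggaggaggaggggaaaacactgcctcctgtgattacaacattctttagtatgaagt
Acadm peak at -2.8 kb, triply bound, chr3:153610295-153610494: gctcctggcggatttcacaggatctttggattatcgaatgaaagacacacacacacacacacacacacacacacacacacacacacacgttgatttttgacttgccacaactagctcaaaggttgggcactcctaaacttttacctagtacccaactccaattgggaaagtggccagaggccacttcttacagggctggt
Acadm peak at -0.39 kb, co-bound without HNF4α, chr3:153607886-153608085: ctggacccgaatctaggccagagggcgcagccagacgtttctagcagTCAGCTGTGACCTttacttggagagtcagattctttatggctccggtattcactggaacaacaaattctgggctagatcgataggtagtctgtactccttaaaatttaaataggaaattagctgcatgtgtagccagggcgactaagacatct
Eci1 peak at -0.238 kb, triply bound, chr17:24563290-24563489: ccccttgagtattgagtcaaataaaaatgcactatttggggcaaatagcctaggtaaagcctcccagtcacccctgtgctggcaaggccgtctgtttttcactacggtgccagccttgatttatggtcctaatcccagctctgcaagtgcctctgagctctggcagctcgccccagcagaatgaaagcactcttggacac
Ehhadh peak at -31 kb, triply bound, chr16:21818778-21818977: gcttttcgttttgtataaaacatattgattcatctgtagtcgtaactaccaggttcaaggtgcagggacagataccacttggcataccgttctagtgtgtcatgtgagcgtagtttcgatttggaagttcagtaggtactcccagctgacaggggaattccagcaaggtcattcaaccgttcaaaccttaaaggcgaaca
Ehhadh peak at -0.886 kb, triply bound, chr16:21788703-21788902: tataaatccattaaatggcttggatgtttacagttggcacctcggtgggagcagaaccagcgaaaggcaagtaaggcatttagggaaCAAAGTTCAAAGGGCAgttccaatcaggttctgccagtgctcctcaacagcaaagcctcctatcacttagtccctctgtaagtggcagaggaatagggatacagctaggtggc
Ehhadh peak at -2.8 kb, HDAC3-only, chr16:21790616-21790815: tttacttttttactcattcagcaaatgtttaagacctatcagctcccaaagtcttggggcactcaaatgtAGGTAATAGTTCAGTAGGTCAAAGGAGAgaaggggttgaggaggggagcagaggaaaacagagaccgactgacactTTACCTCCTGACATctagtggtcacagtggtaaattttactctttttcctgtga
Cyp4a10 peak at -0.12 kb, triply bound, chr4:115190649-115190848: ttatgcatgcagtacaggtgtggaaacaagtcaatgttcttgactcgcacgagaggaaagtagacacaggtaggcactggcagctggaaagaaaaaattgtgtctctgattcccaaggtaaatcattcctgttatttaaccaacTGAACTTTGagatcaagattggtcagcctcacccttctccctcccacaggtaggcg
Cyp4a14 peak at -1.49 kb, triply bound, chr4:115170137-115170336: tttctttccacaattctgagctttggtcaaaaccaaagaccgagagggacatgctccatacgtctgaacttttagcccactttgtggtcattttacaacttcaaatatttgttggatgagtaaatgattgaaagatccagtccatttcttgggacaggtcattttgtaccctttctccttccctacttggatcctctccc
Pdk4 peak at -0.112 kb, co-bound without HNF4α, chr6:5446321-5446520: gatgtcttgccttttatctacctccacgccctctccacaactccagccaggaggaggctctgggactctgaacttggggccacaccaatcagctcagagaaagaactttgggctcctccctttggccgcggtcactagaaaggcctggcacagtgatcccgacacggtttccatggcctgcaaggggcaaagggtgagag
Pdk4 peak at -13.6 kb, co-bound without HNF4α, chr6:5459783-5459982: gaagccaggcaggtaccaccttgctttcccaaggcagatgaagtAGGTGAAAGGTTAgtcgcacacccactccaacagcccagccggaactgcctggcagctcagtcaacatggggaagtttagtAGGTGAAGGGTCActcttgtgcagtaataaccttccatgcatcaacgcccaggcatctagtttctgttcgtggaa

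Co-bound peaks lay in the windows of all 8 genes, beside 38.4% of all protein-coding genes, and triply bound peaks also in all 8, beside 31.1%. The 8 windows together held 49 different co-bound peaks, of which 26 were triply bound. The numbers ranged from 3 co-bound peaks at *Eci1* to 16 at *Ppara*, with a median of 5, whereas the median was 0 over all genes and 2 over the 8588 genes with any co-bound peak. Other genes of hepatocytes had as many, with 5 to 8 co-bound peaks at *Alb*, *Apob*, *Ttr*, *Cps1* and *Tat*. Window length did not set the members apart from other genes, with a median of 70.8 kb for the 8 genes, 67.4 kb for all genes and 75.7 kb for genes with a co-bound peak. Per 100 kb of window, the members had a median of 6.59 co-bound peaks and genes with any co-bound peak 2.66. Both *Cyp4a* windows hold the same 4 peaks, which are counted once in totals. The members were chosen as a list, so these counts are a description and carry no test.

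**Figure D1:**
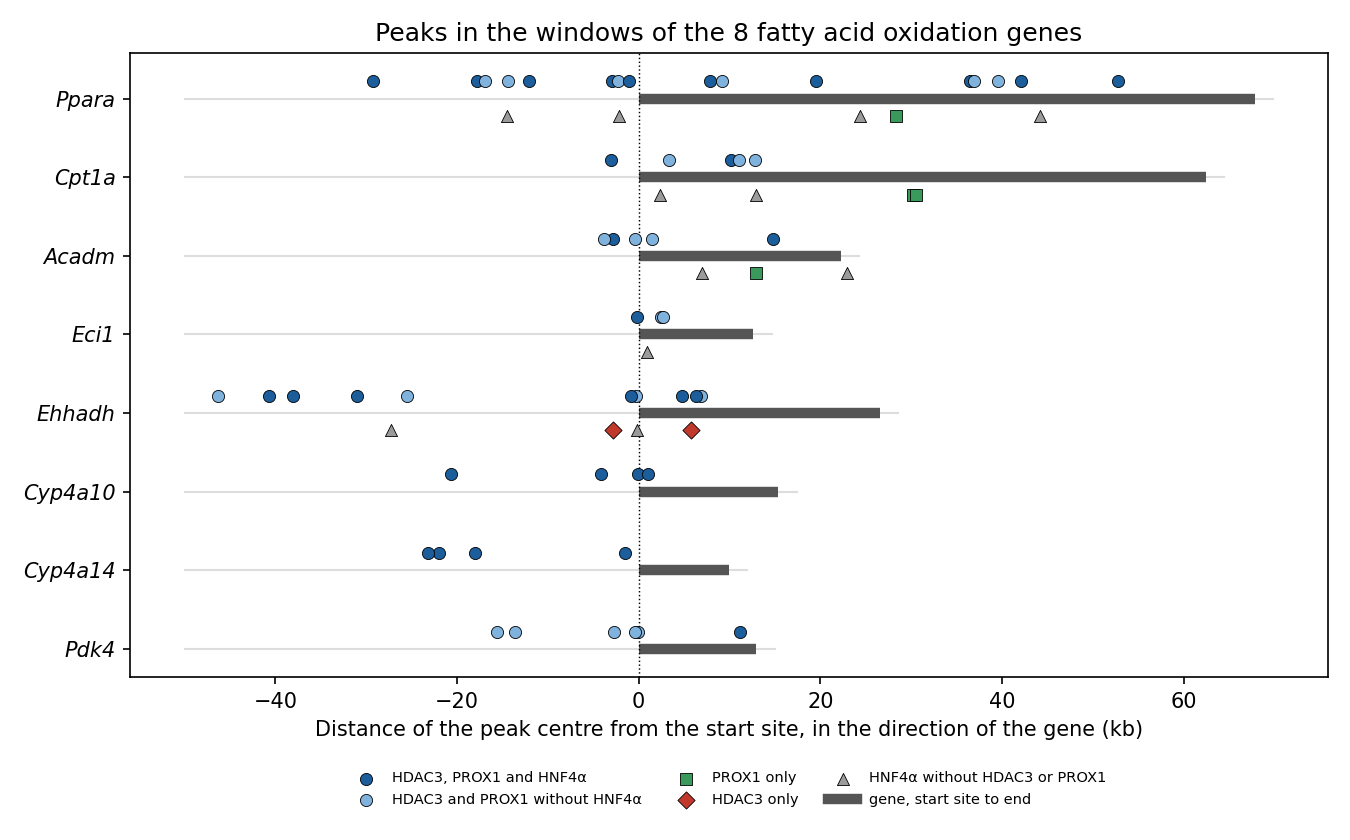
Peaks in the 8 gene windows on mm9, plotted by the distance of the peak centre from the TSS of the gene in kb (x axis), with 1 row per gene and 1 marker per peak by class. The 16 co-bound peaks of *Ppara* run from -29.3 kb to 52.7 kb, and the 10 of *Ehhadh* fall into a group around the TSS and a group beyond -25 kb.

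Peaks of single factors were rarer. PROX1-only peaks lay in the windows of 3 of the 8 genes (25.2% of all genes), HDAC3-only peaks in that of 1 (7.4%), and HNF4α peaks without HDAC3 or PROX1 in those of 5 (34.9%). In all, 4 PROX1-only, 2 HDAC3-only and 11 such HNF4α peaks were counted. They made up 6.06%, 3.03% and 16.7% of the classed peaks in the windows, beside 20.1%, 3.28% and 22.2% of all classed peaks. Of the 55 peaks of the HDAC3 and PROX1 lists in the windows, 49 were thus co-bound, beside 20039 of all 28631.

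*Ppara*, the receptor that senses fatty acids and controls the pathway, had the most peaks of the 8 genes. The gene (ENSMUSG00000022383.7) lies on the forward strand of chromosome 15, from 85565413 to 85633249. Its window held 16 co-bound peaks, more than those of 99.8% of protein-coding genes, and their density of 13.4 per 100 kb was above that of 99.5%. Of the 16, 10 were triply bound. The triply bound peaks formed an upstream series at -29.3, -17.8, -12.1, -2.96 and -1.1 kb and an intronic series at 7.83, 19.5, 36.5, 42 and 52.7 kb. All 10 had HNF4α scores above 41.9, the median of the HNF4α list, from 47.1 at -17.8 kb to 106.0 at -29.3 kb. Over all triply bound peaks, 8018 of 12284 were above that median. No co-bound peak was centred within 1 kb of an annotated *Ppara* TSS, the nearest being at -1.1 kb. The 6 co-bound peaks without HNF4α lay among the triply bound ones, at -17, -14.4, -2.33, 9.17, 36.9 and 39.6 kb. At 39.6, 42 and 52.7 kb, inside *Ppara* introns, the TSS of *2210021J22Rik* is nearer than that of *Ppara*.

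HNF4α was also found at *Ppara* next to, and not under, co-bound peaks. The window held 4 HNF4α peaks without HDAC3 or PROX1, at -14.5, -2.2, 24.4 and 44.1 kb. The peak at -2.2 kb had a score of 111.2, higher than any triply bound peak of this gene, and the peak at -14.5 kb scored 95.2. Both touch a co-bound peak, by 52 bp at -2.33 kb and by 17 bp at -14.4 kb, short of the 50% that defines triple binding. Such a co-bound peak is therefore flanked by HNF4α and is counted here as without it. A PROX1-only peak with HNF4α (score 24.5) lay at 28.3 kb.

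Among the *Ppara* sequences, the exact letters CAAAGTCCA stood in the triply bound peaks at 19.5 kb and 42 kb, in the forward strand at 85584847 to 85584855 and in the reverse strand at 85607476 to 85607484. The peak at 19.5 kb also held a DR1 match. At -29.3 kb the core match read CTAAGTCCA on the reverse strand, and the peaks at -12.1, -1.1 and 7.83 kb held a core match with 1 mismatch each. The triply bound peaks at -17.8, -2.96 and 36.5 kb held none of the 3 motifs. In the peak at 52.7 kb a DR1 match and a DR2 match were found instead of the core.

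*Cpt1a* encodes the carnitine palmitoyltransferase of the outer mitochondrial membrane, the rate-limiting gate for entry of long-chain fatty acids. The gene (ENSMUSG00000024900.4) is on the forward strand of chromosome 19, from 3323301 to 3385732. Its 5 co-bound peaks, more than 91.7% of genes have, lay at -3 kb and in introns at 3.33, 10.1, 11 and 12.8 kb. The triply bound peak at -3 kb had the highest HNF4α score in the windows of the 8 genes, 121.1, above 99.3% of the HNF4α list. Its core match, CAAAGTTCA, lies in the forward strand at 3320315 to 3320323. The other triply bound peak, at 10.1 kb, scored 64.1 and held CAAAGTGCA on the reverse strand.

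As at *Ppara*, HNF4α peaks overlapped the edges of other *Cpt1a* peaks. At 3.33 kb an HNF4α peak of score 89.1 covered 47.5% of a co-bound peak, and at 12.8 kb one of score 39.6 covered 25.5%, so both co-bound peaks were counted as without HNF4α. With an overlap of 1 bp taken as enough, *Cpt1a* would have 4 triply bound peaks. The peak at 11 kb touched none. A pair of PROX1-only peaks without HNF4α lay deeper in the gene, at 30.1 and 30.6 kb, and HNF4α peaks without HDAC3 or PROX1 lay at 2.34 kb (score 49.0) and 13 kb (39.6). The TSSs of *Ighmbp2* and *Mrpl21* also fall in this window, but every co-bound peak was nearest to *Cpt1a*.

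*Acadm* encodes the medium-chain acyl-CoA dehydrogenase, which opens each round of mitochondrial β-oxidation of medium-chain substrates. It (ENSMUSG00000062908.6) is on the reverse strand of chromosome 3, from 153585321 to 153607596, and its window held 5 co-bound peaks. The triply bound ones, at -2.8 kb and in an intron at 14.8 kb, had scores of 41.0 and 31.1. Both are below the list median of 41.9, the first only slightly, with 47.8% of the list lower. The other 3, at -3.79, -0.39 and 1.45 kb, touched no HNF4α peak, and the promoter peak at -0.39 kb was one of them. That promoter peak held a DR1 match, AGGTCACAGCTGA on the reverse strand, and the peak at -3.79 kb a core match. The triply bound peak at -2.8 kb held neither, and its printed sequence contains a long CA repeat. HNF4α peaks without HDAC3 or PROX1 lay at 7.02 and 22.9 kb (scores 47.6 and 34.4), and a PROX1-only peak with HNF4α (25.9) at 12.9 kb.

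*Eci1* encodes the mitochondrial enoyl-CoA isomerase that is needed for unsaturated fatty acids, and had the fewest co-bound peaks of the 8 genes in this window. In a window from 100 kb upstream it had 9, 4 of them triply bound, above the 5 of *Cpt1a* and of *Acadm*. The TSSs of *D330041H03Rik*, *Gm10506* and *Rnps1* already fall in the window from 50 kb upstream. Whether the peaks added beyond 50 kb are nearer to other genes than to *Eci1* was not examined. The gene (ENSMUSG00000024132.5) is on the forward strand of chromosome 17, from 24563628 to 24576261. Its 3 co-bound peaks lay within 3 kb of the TSS, at -0.238, 2.48 and 2.72 kb, a number above that of 82.7% of genes. The promoter peak was triply bound with a score of 25.9, above 13.7% of the HNF4α list, and HNF4α covered 55.5% of it. It held none of the 3 motifs. A second HNF4α peak of score 40.5, without HDAC3 or PROX1, lay at 0.938 kb.

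*Ehhadh* encodes the peroxisomal bifunctional enzyme and is a classical PPARα target. It (ENSMUSG00000022853.6) is on the reverse strand of chromosome 16, from 21761360 to 21787917. With 10 co-bound peaks, more than 98.6% of genes, and 12.7 per 100 kb, it came after *Ppara* in both measures among the 8. This place rests on the distal peaks, since in a window from 20 kb upstream *Ehhadh* had 5 co-bound peaks, 3 of them triply bound, and *Pdk4* had 6 co-bound. The peaks fell into a group at the gene, at -0.886, -0.26, 4.8, 6.32 and 6.87 kb, and an upstream group at -25.6, -31, -38.1, -40.7 and -46.3 kb. Of the 6 triply bound peaks, the highest HNF4α scores belonged to the upstream group, with 94.7 at -31 kb and 74.0 at -38.1 kb. The triply bound peaks at the gene scored 46.6 at -0.886 kb, 37.7 at 4.8 kb and 24.5 at 6.32 kb. No other protein-coding TSS lies in this window, and all 10 co-bound peaks were nearest to *Ehhadh*.

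The *Ehhadh* promoter held a pair of co-bound peaks. In the triply bound one, at -0.886 kb, a core match and a DR1 match overlapped on the forward strand, the core CAAAGTTCA at 21788790 to 21788798 and DR1 AGTTCAAAGGGCA at 21788793 to 21788805. The other, at -0.26 kb, was touched by an HNF4α peak of score 31.1 over 36 bp and was counted as without HNF4α. *Ehhadh* was also the only one of the 8 genes with HDAC3-only peaks, at -2.8 kb and in an intron at 5.79 kb, neither with HNF4α. In the first of these, the capitals cover 2 DR1 and 2 DR2 matches, of which both DR1 and 1 DR2 overlap in a single run from 21790686 to 21790713. The triply bound peak at -31 kb had the highest score of this gene and held none of the 3 motifs.

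*Cyp4a10* and *Cyp4a14* encode neighbouring cytochrome P450 fatty acid omega-hydroxylases, which start the breakdown of fatty acids from the methyl end. *Cyp4a10* (ENSMUSG00000066072.6) is on the forward strand of chromosome 4 from 115190869 to 115206254, and *Cyp4a14* (ENSMUSG00000028715.2) on the reverse strand from 115158805 to 115168747. Their starts face away from each other across the interval between the genes, and all 4 co-bound peaks of both windows lay in or next to it. The *Cyp4a14* count depends on the window, with 2 co-bound peaks from 20 kb upstream and 8 from 100 kb, 5 of those 8 triply bound. In the windows from 50 kb upstream all 4 were triply bound, and neither window held a peak of any other class. From *Cyp4a10* the peaks lay at -20.6, -4.1, -0.12 and 1.05 kb, and their HNF4α scores in that order were 43.3, 36.3, 23.1 and 33.0. The first of them is the nearest to *Cyp4a14*, at -1.49 kb from its TSS.

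Co-binding at the *Cyp4a10* promoter thus went with one of the lower HNF4α scores, with 6.55% of the list below it. This peak held a core match, CAAAGTTCA on the reverse strand at 115190793 to 115190801, whereas the other 3 held none of the 3 motifs. The *Cyp4a* genes are near-copies of each other, and reads can be shared between them. Of all stretches of 36 bases in each peak, 0% were found again within the gene cluster for the peak at -20.6 kb, 42.4% at -4.1 kb, 14.5% at -0.12 kb and 6.67% at 1.05 kb. The peak at -4.1 kb thus holds the most sequence that recurs in the cluster, and is uncertain for that reason. Whether the copies lie in another *Cyp4a* gene, and whether any of the 4 peaks has copies elsewhere in the genome, was not examined. How reads with several alignments were treated is not given in the sources used here.

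*Pdk4* encodes the kinase that shuts off pyruvate dehydrogenase and so spares glucose when fat is burnt. It (ENSMUSG00000019577.4) is on the reverse strand of chromosome 6, from 5433351 to 5446309. Its window held 6 co-bound peaks, more than those of 94.2% of genes, and no peak of any other class. Only 1 of the 6 was triply bound, the lowest share among the 8 genes. It lay at 11.1 kb, in an exon of *Pdk4*, with a score of 28.7. The 5 others lay upstream, at -0.112, -0.385, -2.68, -13.6 and -15.6 kb.

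The *Pdk4* promoter was close to the limit of the definition. At -0.112 kb an HNF4α peak of score 36.8 covered 44% of the co-bound peak, short of 50%, and the peak at -0.385 kb touched none. With an overlap of 1 bp taken as enough, 2 peaks of *Pdk4* would be triply bound. Neither promoter peak held a match to the 3 motifs, as the printed promoter sequence shows for the first. The peak at -13.6 kb, without HNF4α, held a pair of DR1 matches, AGGTGAAAGGTTA at 5459827 to 5459839 and AGGTGAAGGGTCA at 5459908 to 5459920, both on the forward strand.

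**Figure D2:**
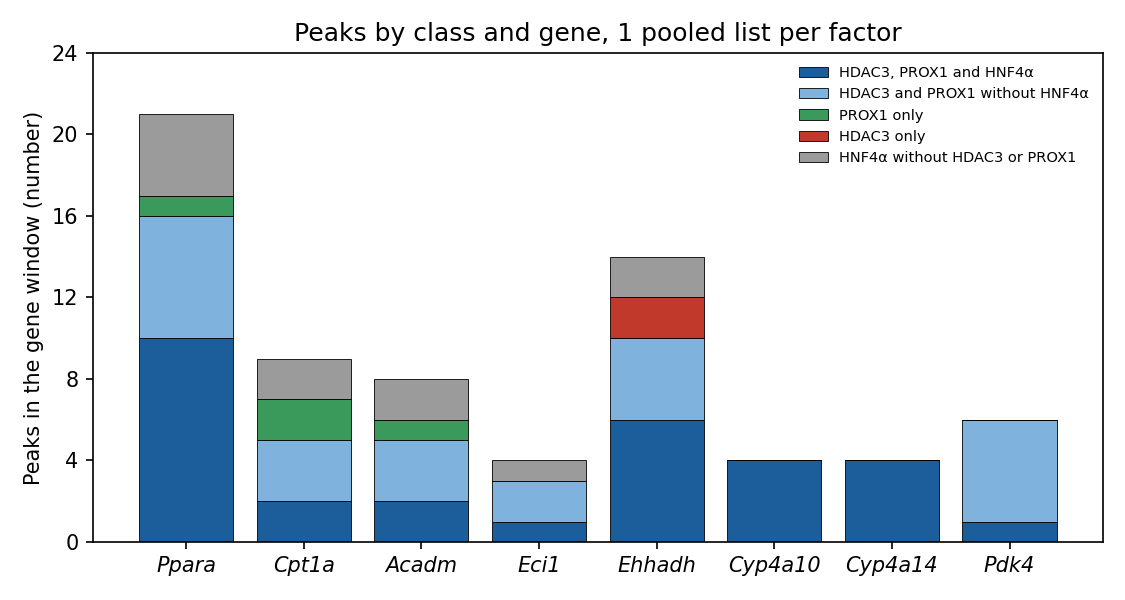
Number of peaks (y axis) in the window of each of the 8 genes (x axis), stacked by class. The co-bound part runs from 3 peaks at *Eci1* to 16 at *Ppara*, all 4 peaks of the *Cyp4a* windows are triply bound, and 5 of 6 at *Pdk4* are co-bound without HNF4α.

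Across the 8 windows, HNF4α lay on 26 of 49 co-bound peaks, or 53.1% (95% CI 39.4 to 66.3), and on 61.3% of all 20039 co-bound peaks, a value inside that interval. The share was uneven among the genes, from 1 of 6 at *Pdk4* to 4 of 4 at the *Cyp4a* pair. Of the 4 PROX1-only peaks, 2 had HNF4α, beside 36.7% of all PROX1-only peaks, and of the 2 HDAC3-only peaks 0 had it, beside 14% of all. With so few peaks of 1 factor no difference from all peaks was detectable.

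Some of the co-bound peaks counted as without HNF4α had it at their edge. Of the 23, 6 touched an HNF4α peak over less than 50% of their length, which is 26.1% (95% CI 12.5 to 46.5), beside 15.2% of all such peaks. They were the peaks at -14.4 and -2.33 kb of *Ppara*, 3.33 and 12.8 kb of *Cpt1a*, -0.26 kb of *Ehhadh* and -0.112 kb of *Pdk4*, with the last 2 of these at promoters. The scores of the HNF4α peaks that touched them ran from 31.1 to 111.2. In turn, 4 of the 11 HNF4α peaks counted as without HDAC3 or PROX1 touched a peak of those lists, beside 6.92% of all.

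**Figure D3:**
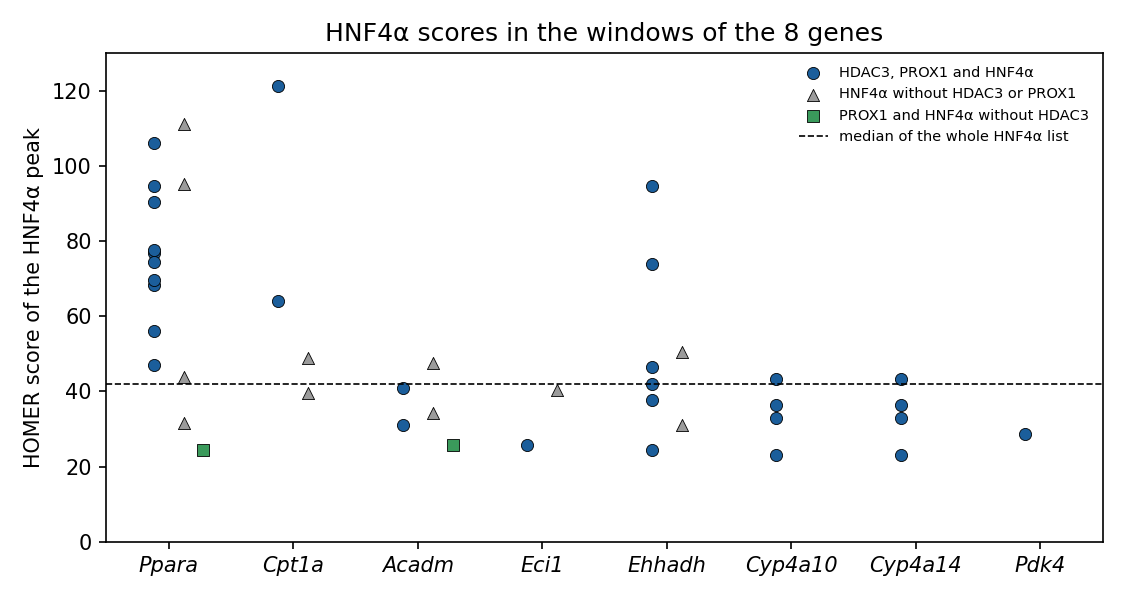
HNF4α score as deposited by the authors (y axis) of each triply bound peak (circles), HNF4α peak without HDAC3 or PROX1 (triangles) and PROX1-only peak with HNF4α (squares), by gene (x axis). The dashed line is the median of the whole HNF4α list, 41.9; all 10 triply bound peaks of *Ppara* and both of *Cpt1a* lie above it, and those of *Acadm*, *Eci1* and *Pdk4* lie below.

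HNF4α scores were unevenly spread over the genes. The 26 triply bound peaks had a median score of 51.6 with a range from 23.1 to 121.1, close to the median of 52.3 over all triply bound peaks. Of these 26 peaks, 16 were above the list median, beside 8018 of all 12284 triply bound peaks. The 16 were all 10 of *Ppara*, both of *Cpt1a*, 3 of 6 of *Ehhadh* and 1 of 4 of the *Cyp4a* pair. No triply bound peak of *Acadm*, *Eci1* or *Pdk4* was. The 11 HNF4α peaks without HDAC3 or PROX1 had a median of 43.8, and all peaks of that class 33.5. The score comes from 1 pooled list, so the spread of these values over livers is unknown.

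The co-bound peaks lay mostly away from promoters. Of the 49, 7 (14.3%, 95% CI 7.1 to 26.7) were centred within 1 kb of a TSS, beside 7.91% of all co-bound peaks. A further 20 were in introns, 1 in an exon and 21 between genes. These are 40.8%, 2.04% and 42.9%, near the 46.9%, 2.42% and 42.8% of all co-bound peaks. The promoter peaks belonged to *Acadm*, *Eci1* and *Cyp4a10* with 1 each and to *Ehhadh* and *Pdk4* with 2 each. Only 3 of these 7 were triply bound, those of *Eci1*, *Cyp4a10* and, at -0.886 kb, *Ehhadh*. *Ppara*, *Cpt1a* and *Cyp4a14* had none, with their nearest co-bound peaks at -1.1, -3 and -1.49 kb. For 46 of the 49, the nearest protein-coding TSS was that of a member.

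Core matches were counted more often where HNF4α was listed, with intervals that overlap slightly. The HNF4 core was found in 10 of 26 triply bound peaks (38.5%, 95% CI 22.4 to 57.5) and in 2 of 23 co-bound peaks without HNF4α (8.7%, 95% CI 2.42 to 26.8), next to 28.4% and 9.05% of all peaks of these classes. In HNF4α peaks without HDAC3 or PROX1 it was found in 5 of 11, next to 40.4%. DR1 matches stood in 3 of 26 triply bound peaks (15.9% of all) and 3 of 23 without HNF4α (8.28%), and DR2 in 1 of 26 (7.39%) and 1 of 23 (5.67%). The letters TTGCNNAA, an exact C/EBP element, stood in 4 of 26 (27.5%) and 4 of 23 (23.9%). The share over all peaks lies inside the interval of each member share, so a difference in motif content was not detectable at this number of peaks.

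**Figure D4:**
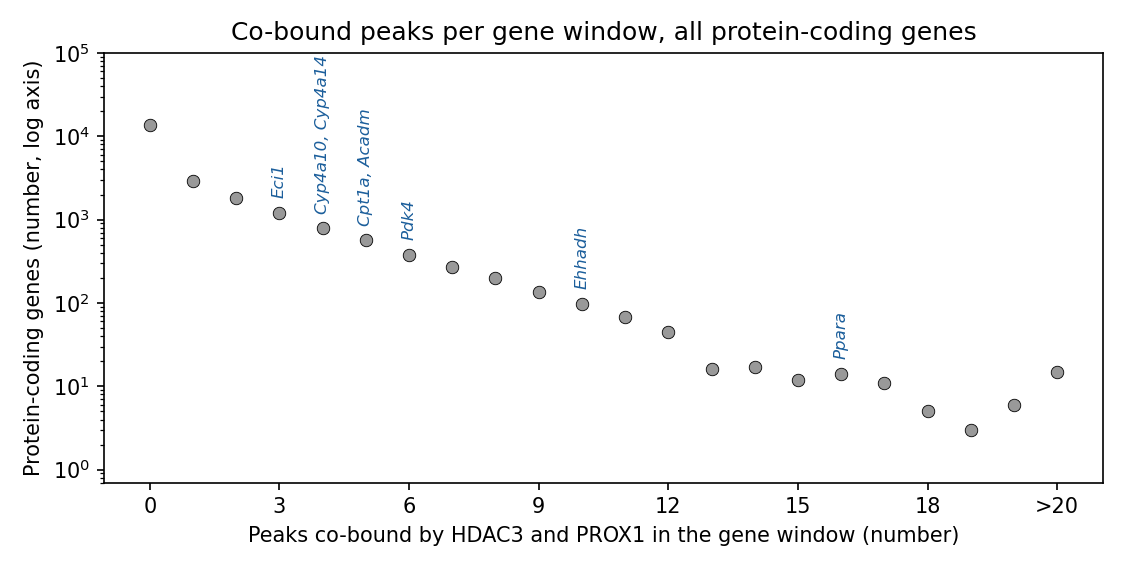
Number of protein-coding genes (y axis, log scale) by the number of co-bound peaks in their window (x axis), with 1 point per count and the 8 genes written above the point of their own count. All 8 lie at 3 peaks or more, while the median of all 22367 genes is 0.

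The wider pathway was followed with 51 further genes of fatty acid use, all of which were found in the annotation. Of these, 45 (88.2%) had a co-bound peak and 36 (70.6%) a triply bound one, beside 38.4% and 31.1% of all genes, with a median of 4 co-bound and 3 triply bound peaks. This list was drawn up with earlier results of these data known, and the shares are no independent evidence. All 6 genes of uptake and activation had a triply bound peak. Among the genes of peroxisomal β-oxidation, 9 of 9 had a co-bound and 7 a triply bound peak, and in the carnitine shuttle 6 of 6 and 4. Mitochondrial β-oxidation had 13 of 15 and 9, the regulators 6 of 7 and 5, and the remaining omega-hydroxylases 2 of 4 and 2.

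Of ketone body metabolism, *Bdh1*, which reduces acetoacetate to β-hydroxybutyrate, had 5 co-bound peaks and *Acat1*, which joins acetyl-CoA units, had 4. All of these were triply bound, and each window also held 1 PROX1-only peak. That of *Bdh1* held 1 HDAC3-only peak besides. The other ketogenesis genes of the list are not reported here.

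Among the genes of the wider list with most triply bound peaks were the peroxisomal transporter *Abcd3* with 8, and *Acaa2* and *Acsl1* with 7 each. *Acaa2* is a mitochondrial thiolase, and *Acsl1* activates long-chain fatty acids to their CoA esters. No co-bound peak was listed for *Acads*, *Acadsb*, *Cyp4a12a*, *Cyp4a12b* and *Fgf21*. *Cyp4a12a* had 3 PROX1-only peaks and *Cyp4a12b* no peak of any class, although they lie in the same chromosome 4 cluster as *Cyp4a10* and *Cyp4a14*. *Fgf21*, the fasting hormone downstream of PPARα, also had no peak of any class.

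The genes most like the members by their counts in the 5 classes were *Cyp4a31* and *Hadha*, each at a summed difference from the member medians of 1.5 peaks. *Acaa1b*, *Cyp4a32*, *Decr1* and *Hadhb* followed in a tie at 2.5. *Cyp4a31* lies beside *Cyp4a10*, and 3 of its 7 co-bound peaks are among those of the member windows. *Hadha*, a subunit of the mitochondrial trifunctional protein, had 5 co-bound peaks, 3 of them triply bound, and *Acaa1b*, a peroxisomal thiolase, had the same numbers.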

How the data were processed

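ChIP-seq peak lists of HDAC3 and PROX1 (3 libraries each) and HNF4α (2 libraries) were used. Per the methods, the authors used Bowtie 0.12.7 for alignment to mm9 and HOMER, against an IgG input, for peaks of the pooled replicates after removal of duplicates, above limits of enrichment and normalized reads. The HNF4α score was deposited by the authors and was read as HOMER's normalized tag number; its scale is not stated in the list. HDAC3 (21247 peaks) and PROX1 (27423) carry positions only, and HNF4α (24253) a score. The 3 empty lines in each of the first 2 lists were dropped. They split the lists into blocks that the sources do not explain. In the windows, blocks 1, 2 and 3 held 83.7%, 4.08% and 12.2% of co-bound peaks, beside 78.3%, 12.3% and 9.43% of all. Block 3 held both *Pdk4* promoter peaks and the *Ehhadh* peak at -0.26 kb. Co-bound peaks are identical in both lists, and so were classed by the authors. Per the methods, overlap required fewer normalized reads in the other factor than its own list did, so support for both factors can be uneven.

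Genes and TSSs were taken from GENCODE on NCBIM37, which is mm9, with each gene's outermost start as its TSS. Promoter peaks were centred within 1 kb of any protein-coding TSS. Motifs were sought on both strands of 200 bp centred on each peak. Intervals are 95% Wilson intervals.

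The members and lists were chosen with earlier results of these data known. The text names all 8 members and, of the wider list, the ketogenesis genes, the 5 genes with most triply bound peaks, those with no co-bound peak, and the 3 with the smallest summed differences from the members' median counts in 5 classes, ties by alphabet; some genes under this rule and among the tissue markers are not reported here. Genes of the wider list named under the other observations were picked after their values were seen, outside this rule. Overlap and motif code was tested on simulated data. Alternatives changed the window, the TSS, the merging of peaks, the covered share, the HNF4α list, the mismatches and the motif window. Python 3.11.15, numpy 2.4.6, scipy 1.17.1 and matplotlib 3.10.9 were used. RNA-seq, H3K27Ac and knockout measurements were not analysed here. The paper filtered HNF4α peaks on the *Hnf4α* knockout when it compared HNF4α binding among peak classes. Whether the HNF4α list used here carries that filter is not stated.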

Additional observations from a re-analysis of the deposited data

How the results depend on the processing

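Under every alternative all 8 genes had at least 1 co-bound peak. Of 235 values recomputed, 193 moved by less than their interval or 1.5 times and 42 by more. Some of the 193 could not move. The changes to the covered share and to the HNF4α list leave the co-bound, PROX1-only and HDAC3-only counts as they are by construction. With 75% of a peak to be covered, 17 peaks were triply bound, *Eci1* and *Pdk4* had none, and the HNF4α share was 34.7% (32.5% over all). HNF4α peaks are 85 to 168 bp wide and HDAC3 and PROX1 peaks 200 bp, so a narrow HNF4α peak fails this rule wherever it lies. The HNF4α peak at 11.1 kb of *Pdk4* lies wholly inside its co-bound peak with 135 bp, which is 67.5%, so its loss reflects peak width. With HNF4α scores above the median, 16 were triply bound in 5 genes, *Acadm*, *Eci1* and *Pdk4* having none, 6 HNF4α peaks were without HDAC3 or PROX1, and the share was 32.7% (40% over all). Merging peaks within 1 kb gave a share of 73% (73.3% over all), 10 co-bound regions without HNF4α, 1 HDAC3-only and 5 with HNF4α alone. An overlap of 1 bp left 7 peaks with HNF4α alone, and windows from 100 kb upstream held 4 HDAC3-only peaks. With 1 mismatch fewer, the core was in 7.69% of triply bound and 0% of other co-bound peaks, DR1 in 0% of both, and DR2 in 0% of those without HNF4α. In 100 bp windows DR1 was in 4.35% of co-bound peaks without HNF4α, and DR2 in 0% of both classes. The counts of *Ehhadh*, *Eci1* and *Cyp4a14* depended on the window length, as given with these genes. Each is a stricter or looser rule by construction. No paired analysis was possible because the replicates were pooled into 1 list per factor.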

Other observations

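The triply bound peak with the highest HNF4α score in the *Ppara* window, 106.0 at -29.3 kb, lies next to the hairpins of 2 let-7 miRNAs on the forward strand of chromosome 15, *Mirlet7c-2* from 85537033 to 85537127 and *Mirlet7b* from 85537749 to 85537833. The miRNAs start at -28.4 and -27.7 kb from the *Ppara* TSS, so the peak is much closer to them than to *Ppara*. They are not protein-coding and were not counted in the nearest-TSS measure. At *Ehhadh*, the lincRNA *1300002E11Rik* runs on the opposite strand from 21794420 to 21809110 and starts at -6.5 kb, between the co-bound peaks at the gene and the upstream group that holds the scores of 94.7 and 74.0. Their expression was not analysed here.

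Among the 6 genes of fatty acid uptake and activation, *Acsl1* had 13 co-bound peaks. *Slc27a2*, a fatty acid transporter and acyl-CoA synthetase, and *Fabp1*, the liver fatty acid binding protein, had 9 each. *Cd36*, a fatty acid translocase, and *Acsl5* had 6 each, and *Slc27a5* had 3. The median was 2 over protein-coding genes with a co-bound peak and 0 over all genes. The coactivators *Ppargc1a* and *Ppargc1b*, which work with PPARα, had 7 and 11, and *Rxra*, its heterodimer partner, had 7. Of the other regulators, *Sirt3* had 7 and *Pdk2* had 2. The genes of this paragraph were picked after their values were seen. *Creb3l3*, a fasting-induced liver factor, had 2 co-bound peaks, 0 of them triply bound, beside 5 HNF4α peaks without HDAC3 or PROX1.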
